A study of Mus musculus with 12 samples.

Results

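Zic1, Zic2, Zic4, Zic5, Pax3, Pax6 and Pax7 are transcription factor genes of the neural plate border and of the neural crest that arises there. They were chosen by name, as 7 of the 24060 genes listed in the RNA-seq tables of 12 rhabdoid tumors, and all 7 were found. The tumors arose in P0-CreC;Smarcb1flox/flox mice on the FVB/N background, in which the P0-CreC transgene removes Smarcb1 from early neural crest cells and the Schwann cell lineage. All 12 tumors share this genotype, and no normal tissue or tumor with intact Smarcb1 was among them. The location labels name 4 retro-orbital tumors, 3 cheek tumors, 3 meninges tumors, 1 vestibular nerve tumor and 1 trigeminal nerve tumor. They give neither an age for each animal nor the molecular subgroup of each tumor. Levels are in RPKM, read fragments scaled to transcript length and to the fragments of the tumor, so genes can be compared with each other as well as tumors. The question asked here is which of these paralogs were expressed, where, and together with which others.

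At the border between neural plate and surface ectoderm, Wnt, BMP and FGF signals switch on Zic, Pax3, Pax7, Msx, Dlx and Tfap2 genes, and these in turn switch on the genes that make neural crest. The Zic proteins are zinc finger factors related to Gli proteins. Their genes lie in divergent pairs, Zic1 with Zic4 and Zic2 with Zic5. The Pax proteins bind DNA through a paired domain. Pax3 and Pax7 act in crest and in muscle progenitors, whereas Pax6 acts in eye, forebrain and hindbrain.

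Zic1 (ENSMUSG00000032368) lies on the minus strand of chromosome 9, at chr9:91358058-91365810 in GRCm38 (the same assembly as mm10), and Zic4 (ENSMUSG00000036972) on the plus strand at chr9:91362413-91389348. In GENCODE M21 the longest Zic4 transcripts reach back into Zic1, and 60 of the 5693 exonic bases of Zic1 are also exonic in Zic4 on the opposite strand. The libraries keep the strand, but whether strand was used in counting is not given in the sources used here, so reads of these shared bases may have been assigned to either gene or to none. Zic5 (ENSMUSG00000041703, minus strand, chr14:122456795-122465677) and Zic2 (ENSMUSG00000061524, plus strand, chr14:122475435-122479852) are transcribed away from each other with 9757 bases between them. Pax3 (ENSMUSG00000004872, chr1:78101267-78197134, minus strand), Pax6 (ENSMUSG00000027168, chr2:105668900-105697364, plus strand) and Pax7 (ENSMUSG00000028736, chr4:139737062-139833528, minus strand) each lie alone, on 3 other chromosomes. Pax6os1, an antisense gene that overlaps Pax6, did not pass 0.537 RPKM in any tumor.

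The sequences before the start sites of Zic1, Zic4 and Zic5 are shown because the levels of these genes went together across the tumors, as described further on. RefSeq windows (GRCm38.p6) were at hand for 5 of the 7 members. Zic2 and Pax3 had none. Each sequence below is the 250 bases before the annotated start, 5′ to 3′ on the strand of the gene, and capitals mark the letters CCAAT, a promoter element of many genes.
Zic1, chr9:91365769-91366018, minus strand: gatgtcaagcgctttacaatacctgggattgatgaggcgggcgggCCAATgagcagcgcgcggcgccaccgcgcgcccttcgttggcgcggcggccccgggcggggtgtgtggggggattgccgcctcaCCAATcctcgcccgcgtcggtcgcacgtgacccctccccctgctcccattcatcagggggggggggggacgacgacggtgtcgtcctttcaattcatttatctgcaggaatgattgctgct
Zic4, chr9:91368722-91368971, plus strand: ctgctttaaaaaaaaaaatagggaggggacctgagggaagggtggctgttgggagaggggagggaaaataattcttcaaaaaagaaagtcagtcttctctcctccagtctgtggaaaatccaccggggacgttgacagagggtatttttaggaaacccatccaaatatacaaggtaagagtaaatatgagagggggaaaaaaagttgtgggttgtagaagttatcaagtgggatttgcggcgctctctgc
Zic5, chr14:122465659-122465908, minus strand: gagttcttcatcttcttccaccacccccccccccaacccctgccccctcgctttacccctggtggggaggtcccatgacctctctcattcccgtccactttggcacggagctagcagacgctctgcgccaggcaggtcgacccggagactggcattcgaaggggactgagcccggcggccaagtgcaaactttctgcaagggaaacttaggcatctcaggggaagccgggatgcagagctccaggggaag
The first pair of windows faces away from each other inside the 3203 bases that part these start sites of Zic1 and Zic4, and they differ in base composition. The Zic1 window held 66.0% G and C and 27 CpG, against 44.4% and 4 CpG for Zic4. The Zic5 window held 62.4% and 11 CpG, and the medians over all 32851 mouse windows were 52.4% and 6 CpG. On both strands 5 sets of letters were searched, none of which contains another. CCAAT was found 2 times before Zic1 and not before Zic4 or Zic5, and 33.8% of all windows held it. TATAAA (12.4% of all windows), CCTGCTG as bound by Zic proteins (8.44%), GACCACCCA as bound by Gli proteins (0.225%) and GTCACGC as bound by the paired domain (1.78%) were found in none of the 3. Among the remaining windows, that of Pax7 held CCTGCTG 1 time and the upstream one of the 2 Pax6 windows held CCAAT 1 time.

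The fragment totals that RPKM values were scaled to ranged from 13206168 to 57128422 per tumor, and cheek tumor 3 had the lowest. Smarcb1, the deleted gene, was at 1.70 to 6.31 RPKM in the 12 tumors; RNA of host cells and of the exons left by the deletion is not told apart in these values, so they do not check the deletion. In bulk samples, fewer cells that express a gene and less RNA per cell cannot be told apart. Cheek tumors 2 and 3 resembled each other more than any other 2 tumors (r = 0.989 over all genes). Retro-orbital tumor 3 and the trigeminal tumor, cheek tumor 1 and meninges tumor 1, and cheek tumors 2 and 3 share the first part of their titles, and whether they came from the same animal is not stated. If they did, the tumors are not all independent, and the p-values below, which treat the 12 tumors as separate, may be too small or too large.

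Zic1, which patterns the dorsal neural tube and cerebellum, was the leading member. It was the highest of the 7 in 10 of the 12 tumors and reached 1 RPKM in 11. In the retro-orbital tumors it was at 51.7, 0.508, 38.0 and 40.0 RPKM, in the cheek tumors at 21.02, 20.1 and 19.0 RPKM, and in the meninges tumors at 147, 71.6 and 159 RPKM. The vestibular tumor was at 5.45 RPKM and the trigeminal tumor at 146 RPKM. All 3 meninges tumors lay above all retro-orbital and cheek tumors. The same was so for 3.13% of the genes that reached 1 RPKM in 3 or more of these 10 tumors. The trigeminal tumor lay among the meninges tumors, and retro-orbital tumor 2 was low, with 50 Zic1 fragments against 4694 to 7264 in the other retro-orbital tumors. The means were 126 ± 47.3 RPKM (SD, n = 3) in meninges, 32.5 ± 22.2 (n = 4) in retro-orbital and 20.04 ± 1.03 (n = 3) in cheek tumors.

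Zic4, which acts with Zic1 in cerebellar growth, was lower than Zic1 in each of the 12 tumors, with a ratio of Zic1 to Zic4 between 4.35 in retro-orbital tumor 4 and 27.7 in cheek tumor 2. It was at 3.41, 0.0915, 3.16 and 9.20 RPKM in the retro-orbital tumors, at 1.67, 0.727 and 0.741 RPKM in the cheek tumors and at 27.5, 14.8 and 24.3 RPKM in the meninges tumors. The vestibular tumor had 0.405 RPKM and the trigeminal tumor 9.18 RPKM. The order of locations was that of Zic1: meninges tumors at 22.2 ± 6.62 RPKM (SD, n = 3), retro-orbital tumors at 3.97 ± 3.80 (n = 4) and cheek tumors at 1.05 ± 0.543 (n = 3), with no overlap between meninges tumors and those of either other location. As given for Zic1, 3.13% of genes had all meninges tumors above the others. The trigeminal tumor was as high as the meninges tumors for Zic1 and below all 3 of them for Zic4.

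Zic2, a gene needed for forebrain midline and crest formation, was low. It reached 1 RPKM in 6 tumors, the 3 meninges tumors among them. It was at 0.149, 0.0917, 1.78 and 1.35 RPKM in the retro-orbital tumors, at 0.428, 0.0620 and 0.102 RPKM in the cheek tumors, at 5.73, 2.33 and 5.21 RPKM in the meninges tumors, at 0.759 RPKM in the vestibular and at 1.11 RPKM in the trigeminal tumor. The cheek values rest on 36, 6 and 4 fragments and the meninges values on 468, 182 and 275. Here too each meninges tumor was above each retro-orbital and cheek tumor, as for the 3.13% of genes given above.

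Zic5, the divergent neighbour of Zic2, reached 1 RPKM in meninges tumors 1 and 3 only, at 2.17 and 1.34 RPKM (142 and 57 fragments). Meninges tumor 2 was at 0.335 RPKM, next to cheek tumor 1 at 0.340 RPKM, so these locations overlapped. The trigeminal tumor was at 0.476 RPKM, retro-orbital tumors 3 and 4 at 0.220 and 0.244 RPKM, and the vestibular tumor at 0.118 RPKM. Retro-orbital tumors 1 and 2 and cheek tumors 2 and 3 were at 0 fragments, which allows up to 3 fragments, or 0.0465, 0.0428, 0.0386 and 0.0953 RPKM (counting error only).

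Pax3, which specifies crest and melanocyte precursors and muscle progenitors, had another order. It was highest in cheek tumors 2 and 3, at 43.1 and 38.5 RPKM, where it passed Zic1 (20.1 and 19.0 RPKM), and cheek tumor 1 was at 2.41 RPKM. The retro-orbital tumors were at 6.24, 0.273, 2.13 and 16.0 RPKM, and the meninges tumors at 0.329, 5.13 and 7.74 RPKM. The vestibular tumor had 0.446 RPKM and the trigeminal tumor, in which Zic1 was at 146 RPKM, 0.159 RPKM from 13 fragments. The 3 locations overlapped, and the spread within each was wide: 28.0 ± 22.3 RPKM (SD, n = 3) in cheek, 6.17 ± 7.02 (n = 4) in retro-orbital and 4.40 ± 3.76 (n = 3) in meninges tumors.

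Pax6, a gene of eye and brain development, was high in single tumors of different locations. Meninges tumor 3 was at 16.5 RPKM, retro-orbital tumor 3 at 11.2 RPKM, cheek tumor 1 at 3.01 RPKM and meninges tumor 1 at 1.22 RPKM, and the other 8 tumors were at 0.0333 to 0.719 RPKM. No location held Pax6 at 1 RPKM in all of its replicated tumors. Pax7, the paralog of Pax3 that marks satellite cells of muscle, reached 1 RPKM in none of the 12 tumors: cheek tumor 1 was highest at 0.569 RPKM (69 fragments), followed by meninges tumor 1 at 0.451, the vestibular tumor at 0.263, retro-orbital tumor 3 at 0.160 and cheek tumor 2 at 0.0215 RPKM, and the other 7 tumors were listed at 0.

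**Figure D1:**
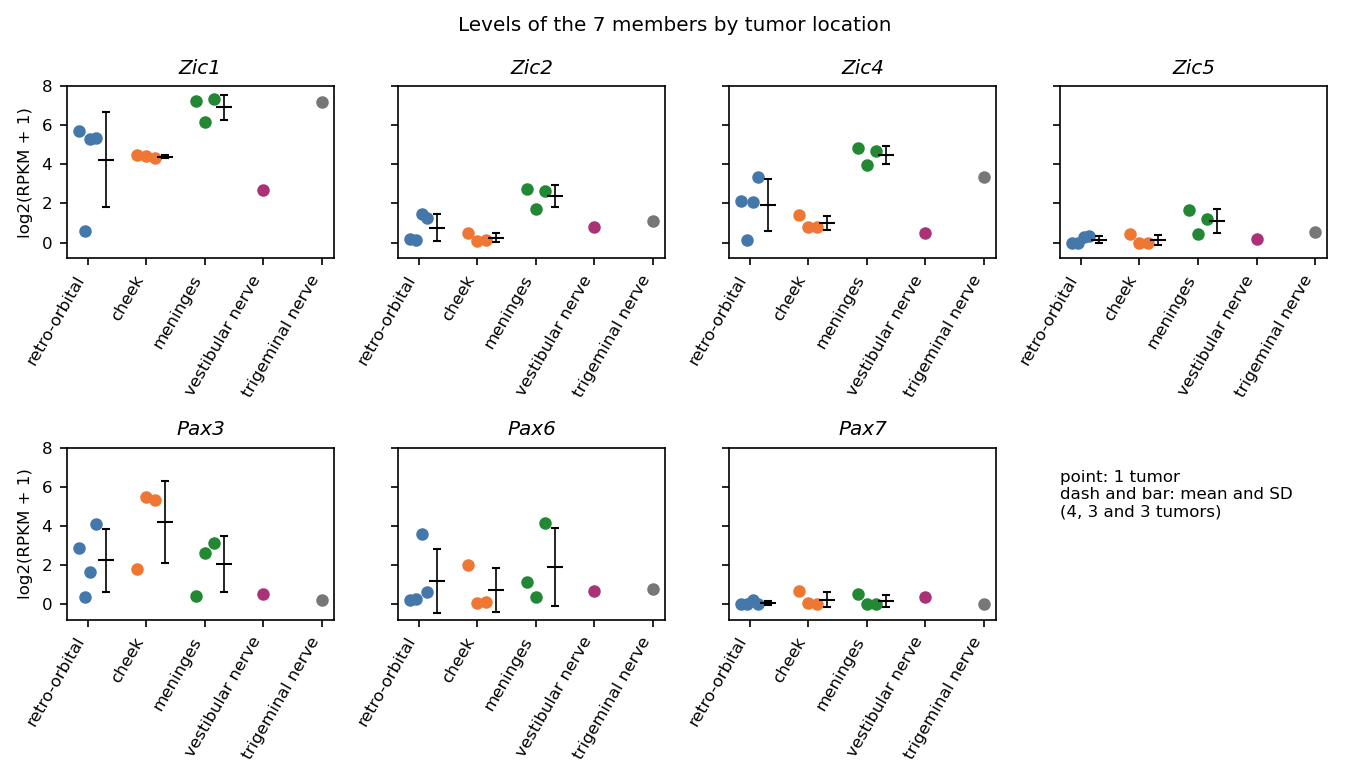
Level of each member as log2(RPKM + 1) on the vertical axis, by tumor location on the horizontal axis; each point is 1 tumor, and the dash with its bar is the mean and SD of the 4 retro-orbital, 3 cheek or 3 meninges tumors. The 3 meninges tumors lie above all retro-orbital and cheek tumors for Zic1, Zic2 and Zic4, as they do for 3.13% of all genes tested. Cheek tumors 2 and 3 lead for Pax3, and Pax7 stays below 1 RPKM in each tumor.

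By tumor, the number of members at or above 1 RPKM ran from 0 in retro-orbital tumor 2 to 6 in meninges tumor 3, which lacked only Pax7. Zic1 and Zic4 were at 1 RPKM together in 8 tumors, and in 6 of the 12 tumors Zic1, Zic4 and Pax3 were. Zic1, Zic2 and Zic4 were together in 6 tumors as well, the 3 meninges tumors, retro-orbital tumors 3 and 4 and the trigeminal tumor. The vestibular tumor held Zic1 alone, and cheek tumors 2 and 3 held Zic1 and Pax3. Of the summed RPKM of the 4 Zic members, Zic1 made up 73.5% to 96.2% (median 85.9%). The summed level of the 3 Pax members passed that of the Zic members only in cheek tumors 2 and 3.

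Differences between locations were tested by limma on log2(RPKM + 1) values, in which the pseudocount shrinks the change of weakly expressed genes. The fit held 14745 genes, those that reached 1 RPKM in 3 or more of the 10 tumors from the replicated locations. Zic1, Zic2, Zic4, Pax3 and Pax6 passed this filter, and Zic5 and Pax7 did not. Among the 3 locations, no member had an adjusted p under 0.05 (0 of 5, with 2 of 5 at an unadjusted p under 0.05), and 0.0407% of all genes were called, with 14.3% at an unadjusted p under 0.05. Zic2 and Pax6 each reached 1 RPKM in only 2 of the 7 retro-orbital and cheek tumors. Both entered this fit through meninges tumors, where Zic2 was high, and their values in it and its contrasts are a description. The lowest adjusted p-values among members were 0.164 for Zic4 and 0.178 for Zic2. Zic1 had 0.373, Pax3 0.492 and Pax6 0.773.

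The lowest adjusted p-values of the contrasts were those of meninges against cheek tumors. Zic4 was 3.49 ± 0.68 (SE) higher in meninges tumors on the log2(RPKM + 1) scale (limma, adjusted p = 0.1002), Zic2 was 2.13 ± 0.45 higher (adjusted p = 0.107) and Zic1 was 2.51 ± 1.15 higher (adjusted p = 0.304). Pax6 differed by 1.17 ± 1.16 and Pax3 by -2.13 ± 1.22. None of the 5 members was called, with 2 of 5 at an unadjusted p under 0.05, and 0.0475% of all genes were called, with 17% at an unadjusted p under 0.05. Zic2, 1 of the 2, passed the filter only through the meninges tumors. The median difference over all genes was 0.16. The spread in this fit is shared by the 3 locations. Without retro-orbital tumor 2, in which the members were low, the same differences of Zic1 and Zic4 had limma adjusted p-values of 0.0289 and 0.0289. The differences themselves were unchanged at 2.51 and 3.49, and 14 genes (0.0956%) were called in that fit. Without cheek tumor 1, Zic4 had a limma adjusted p of 0.0425. The latter fit leaves cheek tumors 2 and 3, which share the first part of their titles and resemble each other most. It called 527 genes (3.63%) against 7. With the first part of the title as a block, an alternative chosen after seeing the data, 4243 genes (28.8%) were called, and Zic4, Zic2, Zic1 and Pax3 had adjusted p-values of 0.000158, 0.000192, 0.00392 and 0.0443. The correlation within blocks was estimated at 0.930 from only 2 pairs of tumors, cheek tumor 1 with meninges tumor 1 and cheek tumors 2 and 3. In that fit Zic4, Zic2 and Zic1 also passed the threshold among the 3 locations (limma adjusted p = 0.000544, 0.000668 and 0.0106), where 19.0% of all genes were called, and no member did in the remaining contrasts. Over the 16 alternatives the adjusted p of Zic4 ran from 0.000158 to 0.452 and that of Zic1 from 0.00392 to 0.662.

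Between meninges and retro-orbital tumors, Zic1 differed by 2.67 ± 1.08 (SE; adjusted p = 0.534 in limma), Zic4 by 2.57 ± 0.63 (adjusted p = 0.384) and Zic2 by 1.62 ± 0.42 (adjusted p = 0.404), all with the higher mean in meninges tumors. Pax6 differed by 0.71 ± 1.08 and Pax3 by -0.18 ± 1.14. No member was called, 3 of 5 had an unadjusted p under 0.05, and 0.0203% of all genes were called, with 9.14% at an unadjusted p under 0.05. The median over all genes was 0.13. Without retro-orbital tumor 2 the difference of Zic1 was 1.45 (adjusted p = 0.379). For Zic1 and Zic4 the lowest meninges tumor was above the highest retro-orbital or cheek tumor, as was so for 3.13% of all genes. This held for Zic2 too, which passed the filter only through the meninges tumors.

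Between cheek and retro-orbital tumors no member was called. Pax3 differed by 1.94 ± 1.14 (SE, cheek higher, limma adjusted p = 0.516), Zic4 by -0.92 ± 0.63, Zic2 by -0.51 ± 0.42, Pax6 by -0.46 ± 1.08 and Zic1 by 0.16 ± 1.08, with 0 of 5 at an unadjusted p under 0.05. In this contrast 0.0271% of all genes were called, and 12% had an unadjusted p under 0.05. The sign for Zic1 turned without retro-orbital tumor 2, where the difference was -1.06, and the 95% interval of the full contrast, -2.26 to 2.57, spans differences in both directions.

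When the single vestibular and trigeminal tumors were joined with the meninges tumors and set against the 7 retro-orbital and cheek tumors, over 15043 genes, Zic4 differed by 1.94 ± 0.74 (SE; limma adjusted p = 0.267), Zic1 by 1.82 ± 0.95 (adjusted p = 0.389), Zic2 by 1.26 ± 0.40 (adjusted p = 0.203), Pax6 by 0.44 ± 0.75 (adjusted p = 0.808) and Pax3 by -1.69 ± 0.92 (adjusted p = 0.3996). No member was called, 2 of 5 had an unadjusted p under 0.05, and 0.193% of all genes were called, with 14.6% at an unadjusted p under 0.05. Zic2, 1 of the 2, and Pax6 passed the filter only through the meninges and nerve tumors, so their values in this fit are a description. Two-sided exact permutation tests over the 792 assignments of 5 and 7 tumors, not adjusted for the 7 members tested, gave p = 0.0202 for Zic2, 0.0227 for Zic5, 0.0530 for Zic4, 0.101 for Zic1, 0.131 for Pax3, 0.571 for Pax6 and 0.780 for Pax7. The vestibular tumor stood apart from the rest of its group for Zic1 and Zic4, and without it the differences of these genes were 2.67 and 2.68.

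**Figure D2:**
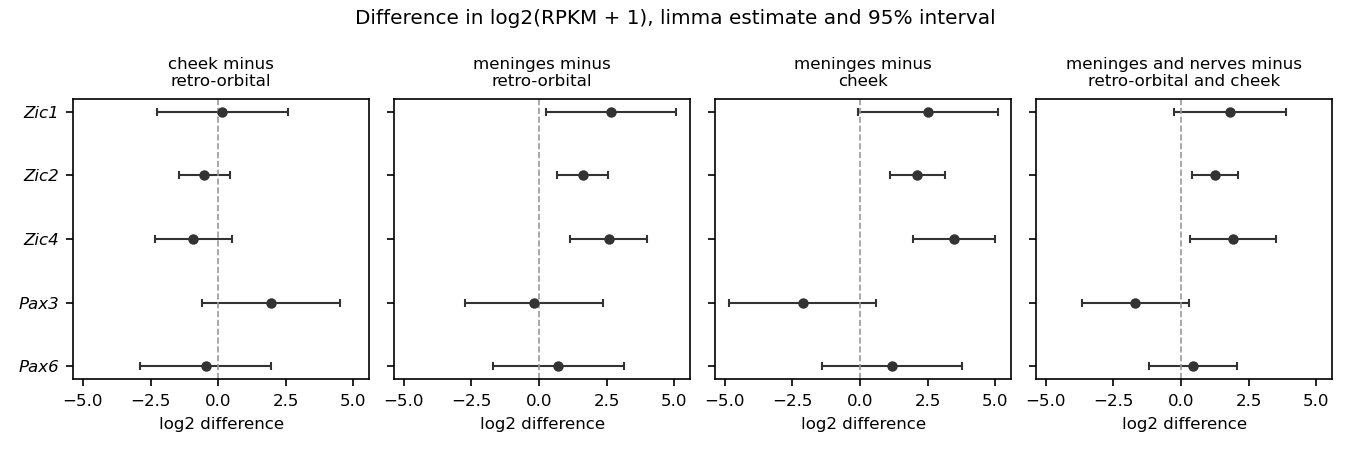
Difference in log2(RPKM + 1) between groups of tumors on the horizontal axis, for the 5 members that passed the filter; points are limma estimates, bars their 95% intervals and the dashed line marks 0. The intervals of Zic2 and Zic4 lie above 0 in the 3 contrasts with meninges tumors, whereas no adjusted p over all genes was under 0.05. Zic2 and Pax6 passed the filter only through the meninges and nerve tumors, so their intervals are a description.

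Which members were expressed together was measured by Pearson's r of log2(RPKM + 1) and Spearman's rho over the 12 tumors, with permutation p-values (100000 resamples, two-sided) adjusted over the 21 pairs. Zic1 and Zic4 had r = 0.876 (permutation, adjusted p = 0.000840) and rho = 0.951 (adjusted p = 0.000420). Without retro-orbital tumor 2 and the vestibular tumor, the 2 farthest from the median of Zic1, r was 0.908. Only 0.0133% of the genes compared were as strongly correlated with Zic1, but 0.306% were with Zic4. Zic2 and Zic5, the other divergent pair, had r = 0.905 (permutation, adjusted p = 0.000840) and rho = 0.840 (adjusted p = 0.0101), and r = 0.755 without meninges tumors 1 and 3. Of the 4 pairs across the loci, those of Zic4 passed the threshold: Zic2 and Zic4 had r = 0.881 and rho = 0.853, and Zic4 and Zic5 r = 0.818 and rho = 0.779, both with a permutation adjusted p of 0.000840 for r. These 4 of the 21 pairs had an adjusted p under 0.05 for r, and they were also 4 when 1 tumor of each pair with the same first part of the title was left out (9 tumors). For Zic2 and Zic5, 0.346% of the genes compared correlated as highly with Zic2 and 0.0866% with Zic5. These shares were 0.672% with Zic2 and 0.260% with Zic4 for that pair, and 0.972% with Zic4 and 1.08% with Zic5 for theirs. The pairs of Zic1 across the loci did not pass the threshold for r. For Zic1 with Zic2 r was 0.682 (permutation, adjusted p = 0.0606) and rho 0.776 (adjusted p = 0.0134), and for Zic1 with Zic5 r was 0.661 (adjusted p = 0.0821) and rho 0.776 (adjusted p = 0.0134).

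These relations span the difference between meninges tumors and the rest. Within the 7 retro-orbital and cheek tumors, an alternative chosen after seeing the data, r was 0.750 for Zic1 and Zic4, 0.734 for Zic2 and Zic4, 0.734 for Zic2 and Zic5 and 0.561 for Zic4 and Zic5. With 7 tumors, 0 of the 21 pairs had an adjusted p under 0.05. The within-location relation could not be had for the 3 meninges tumors alone, which are too few.

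No pair of Pax members passed the threshold. Pax3 and Pax6 had r = -0.162, Pax3 and Pax7 r = -0.434, and Pax6 and Pax7 r = 0.242, with permutation adjusted p-values of 0.769, 0.366 and 0.687. Nor did any pair of Pax3 with a Zic member, with r from -0.335 (Zic5) to 0.083 (Zic1). The value for Zic1 rested on the 2 tumors with low Zic1: without retro-orbital tumor 2 and the vestibular tumor it was -0.645. Of the Pax members, Pax6 came nearest to Zic2 and Zic5. Zic2 and Pax6 had r = 0.590 (permutation, adjusted p = 0.113) and rho = 0.734 (adjusted p = 0.0232), and Zic5 and Pax6 r = 0.491 (adjusted p = 0.203) and rho = 0.790 (adjusted p = 0.0134). Pax6 was at 16.5 RPKM in meninges tumor 3 but at 0.289 RPKM in meninges tumor 2, where Zic2 was at 2.33 RPKM.

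**Figure D3:**
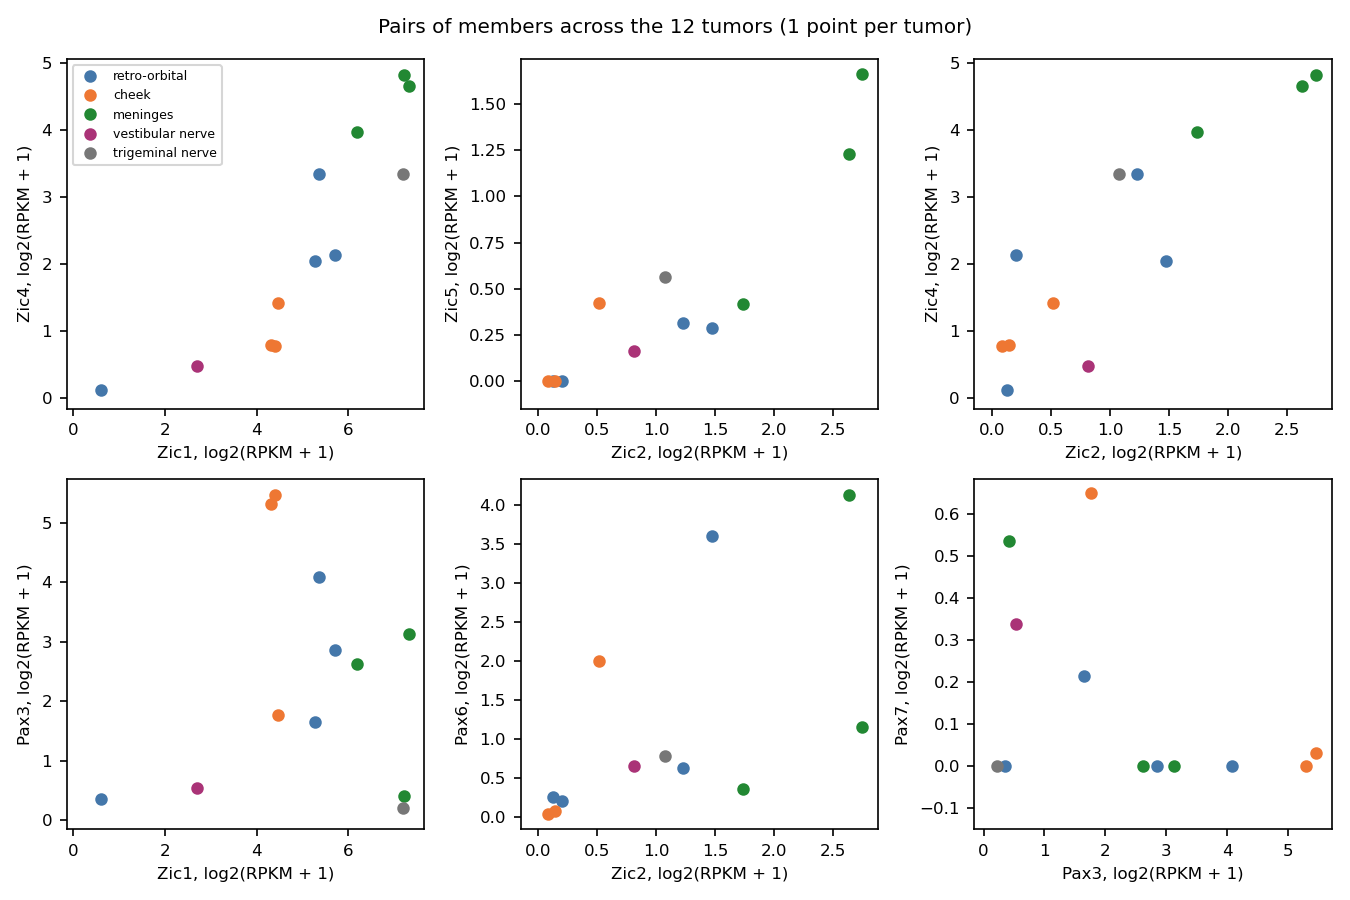
Levels of 6 pairs of members as log2(RPKM + 1) on both axes, 1 point per tumor, colored by location. Zic1 with Zic4, Zic2 with Zic5 and Zic2 with Zic4 rise together (r = 0.876, 0.905 and 0.881). Zic1 with Pax3 (r = 0.083) and Pax3 with Pax7 (r = -0.434) show no such rise.

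**Figure D4:**
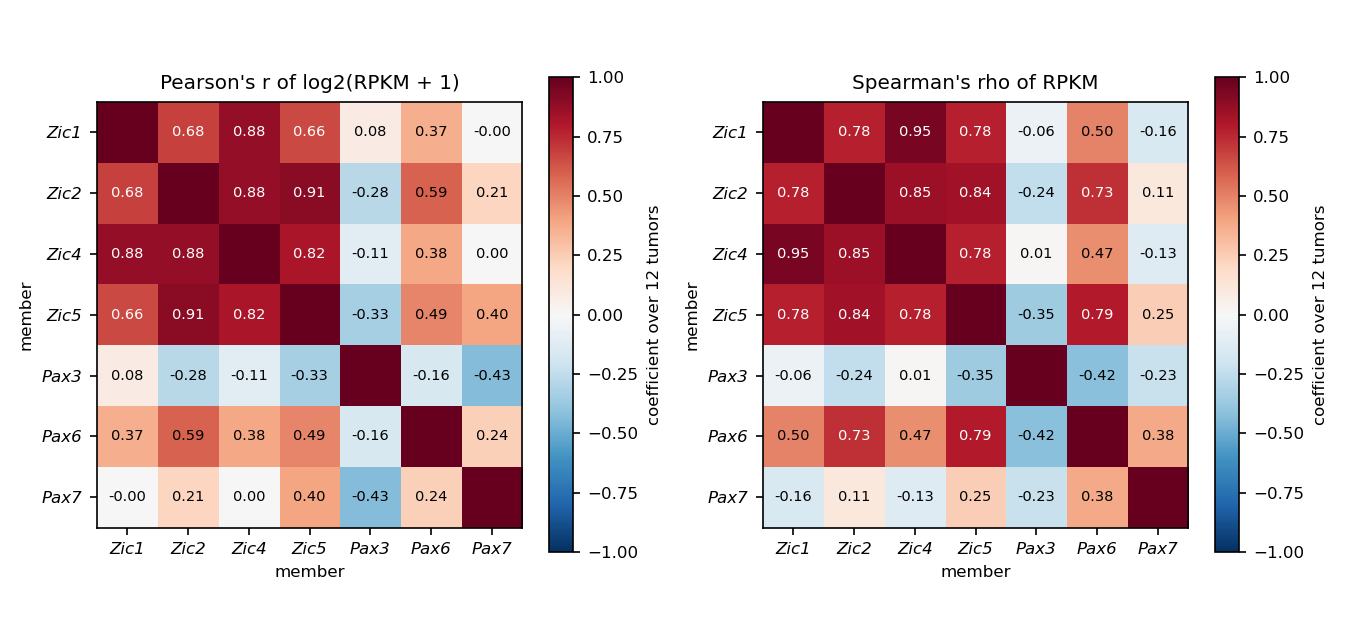
Correlation of each pair of the 7 members over the 12 tumors, Pearson's r of log2(RPKM + 1) on the left and Spearman's rho on the right, with color and number giving the coefficient. The 6 Zic pairs range from r = 0.661 to 0.905, and the 3 Pax pairs from -0.434 to 0.242.

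Over the 12 tumors, each member was compared by Pearson's r, as a description, with the 15020 genes that reached 1 RPKM in 3 or more tumors. The genes most like Zic1 were Mdk (r = 0.924), which encodes the growth factor midkine, Snph (0.882), which anchors mitochondria in axons, and Zic4. Mdk ranged from 3.08 RPKM in retro-orbital tumor 2 to 101 RPKM in the trigeminal tumor, the same lowest tumor as for Zic1. For Zic2 they were Cdh4 (0.973), encoding R-cadherin, Ppm1e (0.963), a protein phosphatase gene, and Camkv (0.957), all at a few RPKM at most. For Zic4 they were Gm7609 (0.964), Sp100 (0.931), a gene of nuclear bodies, and Pdcd1 (0.928), the immune receptor PD-1. Zic2 held rank 40 and Zic1 rank 47 for Zic4. For Pax3 they were Plac1 (0.897), C430049B03Rik (0.893) and Ptgis (0.890), the prostacyclin synthase gene, with maxima of 115, 86.3 and 234 RPKM in cheek tumors 2, 2 and 3. For Pax6 they were Grik1 (0.978), a kainate receptor gene, Hpn (0.946), a membrane protease gene, and Coch (0.915), the cochlin gene.

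The other Pax paralogs were mostly silent. Pax2, Pax4, Pax5 and Pax8 stayed below 1 RPKM in all tumors, and Pax1, a gene of sclerotome and pharyngeal pouches, reached at most 3.34 RPKM, in the vestibular tumor. Pax9, which acts in pharyngeal pouches, teeth and facial mesenchyme, was the exception. It was at 85.7 RPKM in the vestibular tumor, at 3.49, 49.8 and 45.6 RPKM in the cheek tumors, at 0.172, 31.9, 4.37 and 0.0660 RPKM in the retro-orbital tumors, at 0.127, 1.24 and 1.05 RPKM in the meninges tumors and at 1.65 RPKM in the trigeminal tumor. The 2 tumors with the lowest Zic1, retro-orbital tumor 2 and the vestibular tumor, were thus among the 4 with the highest Pax9. In meninges against cheek tumors Pax9 differed by -3.67 ± 1.33 (SE, limma adjusted p = 0.233).

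Of 12 further neural plate border genes, 11 passed the filter and 0 were called in any of the 5 fits, with medians of the log2 difference of 0.08 (meninges against retro-orbital), 0.04 (meninges against cheek) and 0.15 (all 12 tumors), beside 0.13, 0.16 and 0.13 over all genes. Msx1, a target of BMP signalling, was at 24.5 and 25.7 RPKM in cheek tumors 2 and 3, the tumors of highest Pax3, at 3.91 RPKM in cheek tumor 1 and at 0.282, 0.492 and 0.262 RPKM in the meninges tumors. The difference of Msx1 was -3.48 ± 0.58 (SE, meninges minus cheek, limma adjusted p = 0.0783). Dlx3, a border gene of the ectodermal side, reached 12.4 RPKM in meninges tumor 1 and 10.7 RPKM in cheek tumor 1, but was at 0.321 RPKM in meninges tumor 2. Tfap2c lay between 0.122 RPKM in retro-orbital tumor 2 and 27.3 RPKM in meninges tumor 1. Hes1 and Id3, general targets of Notch and BMP signals, were present in all tumors, at 8.12 to 34.9 and at 48.4 to 242 RPKM.

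Of 10 partners and targets in the crest, 8 passed the filter in the fit of 3 locations and 9 in the fit of 12 tumors, and 0 were called in any of the 5 fits. The median difference of meninges against cheek tumors was 0.95, against 0.16 over all genes. Gli1, the readout of Hedgehog signalling, was at 5.26, 23.0 and 18.1 RPKM in meninges and at 3.92, 3.19 and 3.25 RPKM in cheek tumors (difference 1.68 ± 0.71 SE, limma adjusted p = 0.274). Snai2, a crest migration gene, was at 68.0, 48.3 and 50.5 RPKM in the cheek tumors and as low as 0.844 RPKM in retro-orbital tumor 4. Its difference of meninges minus cheek tumors was -1.51 ± 0.85 (SE, limma adjusted p = 0.382). Foxd3, which marks premigratory crest, did not pass 0.416 RPKM in any tumor, and Sox10, which marks migrating crest and glia, reached 3.56 RPKM at most, in meninges tumor 1.

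Levels of markers of other cells are given beside those of the members. Of 6 astrocyte and oligodendrocyte genes, 4 passed the filter and all 4 had a higher mean in meninges than in cheek tumors, with a median difference of 4.16 against 0.16 over all genes. In limma, 4 of 4 had an unadjusted p under 0.05 for meninges against cheek tumors, where 17% of all genes did. Over the 12 tumors 5 of 5 did (14.6% of all genes), and for cheek against retro-orbital tumors 0 of 4 (12%). None of these genes was called in any of the 5 fits. Their summed level was 113 to 396 RPKM in the meninges tumors, 9.57 to 17.9 RPKM in the cheek tumors and 2.79 to 275 RPKM in the retro-orbital tumors, with 59.2 RPKM in the vestibular and 125 RPKM in the trigeminal tumor. Gfap alone was at 228, 65.1 and 260 RPKM in the meninges tumors, at 0.589, 0.324 and 0.353 RPKM in the cheek tumors, and at 128 RPKM in retro-orbital tumor 3, against 0.309 to 13.3 RPKM in the other retro-orbital tumors. Retro-orbital tumor 1 had Zic1 at 51.7 RPKM with Gfap at 0.626 RPKM. Olig2, which defines oligodendrocyte precursors, stayed at or below 0.968 RPKM. The part of brain or nerve tissue in the Zic levels was not tested.

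Of 6 meningeal fibroblast genes, 5 passed the filter, all 5 with a higher mean in meninges than in cheek tumors (median 1.73), and 0 were called. Their summed level was 68.8 to 209 RPKM in the meninges, 19.96 to 49.8 RPKM in the cheek and 9.89 to 683 RPKM in the retro-orbital tumors, the highest being retro-orbital tumor 2. There Crabp2, a retinoic acid binding protein gene, alone was at 676 RPKM. Without Crabp2 the sums were 47.9 to 155 RPKM in the meninges, 6.59 to 15.9 RPKM in the cheek and 7.16 to 102 RPKM in the retro-orbital tumors. Foxc1 was at 88.3, 12.4 and 50.5 RPKM in the meninges tumors and at 94.1 RPKM in the trigeminal tumor, and Slc6a13 did not pass 0.444 RPKM in any tumor. Atoh1, the gene that defines cerebellar granule cell progenitors, in which Zic1 is high, was at 0 in all 12 tumors. Of the 6 listed genes of granule cells and their progenitors, 3 reached 1 RPKM in the vestibular tumor. In meninges tumor 1 and in cheek tumor 3, 2 of them did. No gene of retina, lens or cornea reached 1 RPKM, also not in the tumors with Pax6. Skeletal muscle genes summed to 30.7 to 427 RPKM in the cheek tumors, 8.82 to 159 RPKM in the retro-orbital tumors and 4.05 to 282 RPKM in the meninges tumors, so these ranges overlapped. Acta1 was highest in cheek tumors 2 and 3, at 196 and 106 RPKM, and Ckm in cheek tumor 2, at 24.0 RPKM. Other muscle genes were highest elsewhere, Tnnt3 in meninges tumor 1 (165 RPKM), Myh1 in meninges tumor 3 (154 RPKM), Myh4 in the vestibular tumor (27.3 RPKM) and Myog in retro-orbital tumor 1 (5.39 RPKM). Myf5, which with Pax7 marks satellite cells, did not pass 0.132 RPKM. Of the melanocyte genes, Dct, a target of Pax3, was above 1 RPKM only in retro-orbital tumor 4, at 2.78 RPKM with Pax3 at 16.0 RPKM. Dct was at 0 in cheek tumors 2 and 3, where Pax3 was highest, at 43.1 and 38.5 RPKM. The part of muscle or pigment cells in the Pax3 levels was not tested.

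The remaining marker lists are given in the contrast of meninges against cheek tumors. Of 3 Schwann cell genes (Sox10, S100b and Foxd3) 2 passed the filter, both with the higher mean in meninges tumors, and 0 were called. Their summed level was 14.9 to 34.0 RPKM in the meninges, 0.820 to 2.73 RPKM in the cheek and 2.995 to 15.7 RPKM in the retro-orbital tumors, most of it from S100b, which astrocytes also express. Of 5 neuron genes 4 passed, all 4 with the higher mean in meninges tumors, and 0 were called; they summed to 34.1 to 52.9 RPKM in the meninges, 11.4 to 27.0 RPKM in the cheek and 17.9 to 41.8 RPKM in the retro-orbital tumors. The 4 leukocyte genes summed to 113 to 159, 88.6 to 104.7 and 104.8 to 295 RPKM in the same order, with 0 called. The 3 endothelial genes summed to 24.0 to 46.7, 35.0 to 37.9 and 13.4 to 53.9 RPKM, with 0 called. The 6 cerebellar granule cell genes summed to at most 10.1 RPKM, in the vestibular tumor, and the 5 melanocyte genes to at most 7.35 RPKM in the replicated locations. The part of these cells in the levels of the members was not tested.

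**Figure D5:**
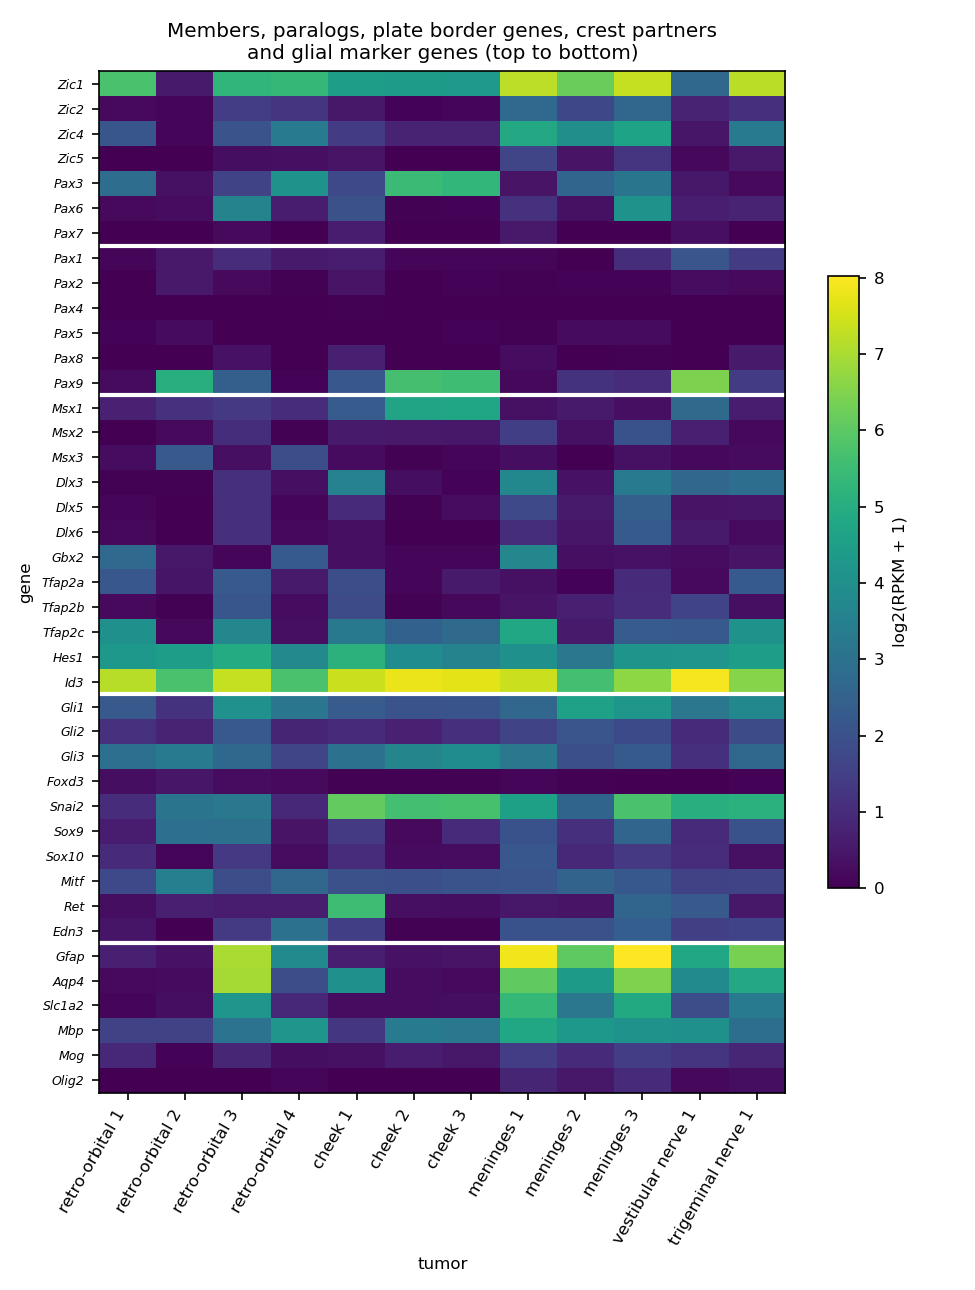
Level of the 7 members, 6 further Pax paralogs, 12 further border genes, 10 crest partners and targets and 6 glial marker genes (rows, top to bottom, parted by white lines) in each of the 12 tumors (columns), with color giving log2(RPKM + 1). Zic1 and Zic4 are bright in the meninges and trigeminal tumors, Pax3 shares cheek tumors 2 and 3 with Pax9 and Msx1, and Gfap is bright in the meninges tumors, the trigeminal tumor and retro-orbital tumor 3.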

How the data were processed

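Per the labels and the study's methods, total RNA of frozen tumors was depleted of ribosomal RNA, made into stranded libraries and run as a single pool. The authors aligned reads to mm10 with STAR, assigned fragments to RefSeq genes by HTSeq and deposited 1 RPKM value per gene and tumor. The transcript length used and the strand setting of HTSeq are not given in the sources used here. The tables list 24060 genes, and 27 of these show a date instead of a symbol and were left unnamed.

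The smallest steps of low RPKM values gave the fragment total of each tumor, and fragments per gene were taken at the smallest length that made its 12 values whole within 0.02 fragments. Groups are the location labels, with tumors numbered in accession order. Tests were limma 3.58.1 in R 4.3.3 on log2(RPKM + 1) with a trended, robust prior, a filter of 1 RPKM in at least 3 fitted tumors and Benjamini-Hochberg adjustment at 0.05, and permutation tests in Python 3.11.15 (numpy 2.4.6, scipy 1.17.1, pandas 2.3.3). Scripts were tested on simulated data. Pseudocount, filter, normalization, prior and fitted tumors were varied, each tumor was left out in turn, and limma's duplicateCorrelation took the first part of the title as a block.

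The members, gene lists and tests were chosen with earlier results of these data known. Named are all members, 6 further Pax paralogs, the listed border, crest and marker genes, and the 3 genes most correlated with each member that reached 1 RPKM in at least 3 tumors. No amino acid sequences were used here. Some genes of the planned lists are not reported here.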

Additional observations from a re-analysis of the deposited data

Results flagged for a closer look

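In the 4 retro-orbital tumors, 1 tumor lay far from the others for Pax6 and for Pax7, judged by the gap to the nearest tumor as a share of the whole range (Dixon's test at its 95% critical value for 4 samples). Retro-orbital tumor 3 had 11.2 RPKM of Pax6 against 0.160 to 0.547 RPKM in the other 3, a gap of 0.965 of the range. The same tumor was the only one of the 4 with Pax7 above 0, at 0.160 RPKM from 39 fragments, so that its gap was 1 by construction. Of the 7 members tested in this group, the other 5 had no such tumor. Retro-orbital tumor 3 also had the highest fragment total of the 12 tumors, 57128422. About 1 in 20 groups passes this limit by chance if the values are normally distributed. RPKM values were used without a log transformation and need not be, so the rate here may be higher.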

How the results depend on the processing

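The counts of genes called changed with the settings. Over each tumor left out in turn, the count for the 3 locations (6 genes) ran from 0 to 198, that of cheek against retro-orbital (4) from 0 to 147, of meninges against retro-orbital (3) from 0 to 41, of meninges against cheek (7) from 0 to 527 and of meninges and named nerves against the rest (29) from 5 to 187. The highest count came without retro-orbital tumor 3 for meninges against retro-orbital tumors and for the 12 tumors, and without cheek tumor 1 for the others. With no filter the 5 counts were 10, 2, 7, 18 and 64. With a constant, non-robust prior they were 19 for the 3 locations, 6 for meninges against retro-orbital, 22 for meninges against cheek and 45 over 12 tumors. With a pseudocount of 0.1 they were 2 for meninges against cheek and 16 over 12 tumors, with quantile normalization 13 for meninges against cheek, and with median scaling 19 over 12 tumors. With the first part of the title as a block, a fit added after seeing the data, the counts were 2802 for the 3 locations, 2 for cheek against retro-orbital, 3 for meninges against retro-orbital, 4243 for meninges against cheek and 112 over 12 tumors. The estimated correlation within blocks was 0.930 from 2 pairs in the fit of 10 tumors and 0.666 from 3 pairs in that of 12.

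Over each tumor left out, 4 to 5 pairs of members had an adjusted p under 0.05 (4 with all 12 tumors). With a pseudocount of 0.1 it was 8, the pairs of Zic1 and of Pax6 with Zic2 and Zic5 being added, and in the 7 retro-orbital and cheek tumors 0. Weak coefficients changed sign: Zic1 and Pax7 to 0.0015 (pseudocount 0.1) and 0.124 (the 7 tumors), Zic4 and Pax7 to -0.0067 (pseudocount 0.1), -0.022 (median scaling) and -0.362 (1 tumor per first part of the title), Zic4 and Pax3 to 0.377 (1 per first part) and 0.121 (the 7 tumors), and, with 1 per first part, Zic2 and Pax3 to 0.060, Zic5 and Pax3 to 0.092 and Zic2 and Pax7 to -0.178. With single tumors left out, Zic1 and Pax3 ran from -0.239 to 0.234, Zic1 and Pax7 from -0.224 to 0.105, Zic4 and Pax3 from -0.299 to 0.049, Zic4 and Pax7 from -0.322 to 0.166 and Zic2 and Pax7 from -0.115 to 0.462. Differences that changed sign in the same way were those of Zic1, cheek minus retro-orbital (-1.06 to 0.65), Pax6 in the same contrast (-1.11 to 0.35), Pax3, meninges minus retro-orbital (-0.81 to 0.64), Pax6 there (-0.42 to 1.52) and Pax6 over the 12 tumors (-0.24 to 0.88). With the block, the differences of Zic1 (-0.0065) and Pax6 (0.71), cheek minus retro-orbital, Pax3 (0.28), meninges minus retro-orbital, and Pax6, meninges minus cheek (-0.58) and over the 12 tumors (-0.60), changed sign. The causes were not tested. At 0.5 RPKM in place of 1 RPKM, 7 tumors in place of 4 held Pax6 and 1 in place of 0 held Pax7. The differences of Zic1, Zic2 and Zic4 between meninges and cheek or retro-orbital tumors kept their sign in all 16 alternatives. For these genes each meninges tumor was above each retro-orbital and cheek tumor. Leaving out 1 tumor, or changing the pseudocount, filter or prior, therefore could not turn the sign, and the kept sign in those settings adds nothing.

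With 3 or 4 tumors per location and 1 each for the nerves, a difference that missed the threshold is not shown to be absent. Zic5 and Pax7 rest on few fragments, and the depth of cheek tumor 3 was the lowest.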

Other observations

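Genes beside the members were looked at after their values were seen. The RNA gene 2610035F20Rik ends 236 bases from Zic2, between Zic5 and Zic2. It had r = 0.939 and rho = 0.9752 with Zic2 over the 12 tumors, at 0 to 1.64 RPKM. Cdh4, Ppm1e and Camkv had a higher r with Zic2 (0.973, 0.963 and 0.957). 2610035F20Rik reached 1 RPKM in only 1 tumor and did not pass the filter. It was at 52 fragments in meninges tumor 1, 14 in each of meninges tumors 2 and 3, 36 in retro-orbital tumor 3 and 0 in retro-orbital tumors 1 and 2 and cheek tumors 2 and 3. Paupar and Pax6os1, RNA genes beside Pax6, stayed at or below 0.419 and 0.537 RPKM.

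Beyond Zic4, Plscr5, which belongs to a family of phospholipid scramblase genes, lies 827126 bases from Zic1 at chr9:92192936-92209772 (GRCm38). It was at 19.9, 37.8 and 58.1 RPKM in the meninges tumors, 11.1 RPKM in the vestibular tumor and 28.5 RPKM in the trigeminal tumor, against at most 4.51 RPKM in the 7 retro-orbital and cheek tumors. The share of all genes parted in this way was not counted. Plscr5 was among the 0.0475% of genes called in meninges against cheek tumors (4.87 ± 0.61 SE on the log2 scale, limma adjusted p = 0.0328). It was also among the 0.193% called over the 12 tumors (4.07 ± 0.47 SE, limma adjusted p = 0.00443). Of the 7 retro-orbital and cheek tumors, only retro-orbital tumors 3 and 4 reached 1 RPKM (4.51 and 1.39). Plscr5 thus passed the filter only through the meninges and nerve tumors, and its values in these fits are a description. With each tumor left out in turn, it was called in 12 of 12 fits over the 12 tumors (limma adjusted p 0.00104 to 0.0207), but in only 3 of 10 fits of meninges against cheek tumors (0.0162 to 0.245), and in none of those without cheek tumor 2 or 3 or any 1 meninges tumor. Its r with Zic1 was 0.631 and its rho 0.776. The vestibular tumor, with Zic1 at 5.45 RPKM, was above all retro-orbital and cheek tumors for Plscr5.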
